A study of Mus musculus with 27 samples.

Results

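The 40 genes described here act in the cell division cycle. They were given as a list and matched by symbol to the 51826 gene identifiers of the deposited tables. All 40 were found, and they were divided by role into 12 genes of DNA replication (S phase) and 28 genes of mitosis. Their expression was followed by bulk RNA sequencing of whole livers of wild-type BALB/c mice, an inbred laboratory strain, over a reproductive cycle. Each of the 27 libraries carries a number of its own and was taken as 1 animal, which the labels do not state, so p-values measure the spread between these libraries. The stages were non-pregnant, nulliparous animals (NUL, 4 libraries), lactation day 10 (LAC, 3) and involution, the time after weaning, at days 2 (ID2, 3), 4 (ID4, 4), 6 (ID6, 6) and 8 (ID8, 3). The last stage was 4 weeks after weaning, called regressed (REG, 4). Bred animals were 10 to 12 weeks old at breeding and nursed litters of even size, and pups of the involution and regressed groups were taken away after 10 to 14 days of lactation. The labels give no transgene, drug or diet for any group and state that animals were matched for age.

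Cells copy their DNA in S phase and divide the copies in mitosis. The replication genes encode the helicase that opens DNA (the MCM proteins and Cdc45), its loading factor Cdt1 with the inhibitor geminin (Gmnn), the sliding clamp Pcna and the enzyme that makes deoxynucleotides (Rrm1 and Rrm2). The mitotic genes encode cyclins and kinases that start mitosis, parts of the kinetochore and spindle, and proteins that end it. In textbook accounts, replication genes are activated before S phase through E2F sites in their promoters. Mitotic genes are activated later, in G2 and mitosis, through CCAAT boxes and an element called the CHR, with FOXM1 and the DREAM and MYB-MuvB complexes as regulators. Adult hepatocytes seldom divide, yet they can re-enter the cycle, and many complete S phase without dividing.

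The library totals of expected counts ran from 41120650 to 75664540, and 16428 genes had enough reads to be tested. All 40 members were among them, and all 40 also passed the same filter with the LAC libraries left out. The lowest count of a member in any library was 1, so the lowest values rest on few reads. Levels are given as CPM, the count scaled to the TMM-scaled library total, with the libraries of a stage always in the order given here (NUL_220, NUL_221, NUL_226 and NUL_227; LAC_200, LAC_213 and LAC_240; ID2_224, ID2_31 and ID2_39; ID4_13, ID4_15, ID4_211 and ID4_215; ID8_101b, ID8_14 and ID8_98b; REG_203, REG_214, REG_234 and REG_239). For ID6, with 6 animals, the lowest, median and highest values are given. A gene was called at an adjusted p under 0.05 in edgeR's quasi-likelihood test.

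As a list, the mitotic genes were higher at lactation day 10 than in every other stage. In CPM all 28 had their highest stage mean in LAC, and in the deposited TPM 27 did, with Kif23 lower in LAC (0.543) than in NUL (0.675). For 26 of the 28, each LAC library was above all 24 others, against 2.66% of all genes tested. Replication genes followed a flatter course: in CPM 8 of 12 had their highest stage mean in LAC, 3 in ID2 and 1 in ID8, and in none were the LAC libraries above all others. Lowest stage means were in REG for 19 mitotic genes, in ID8 for 8 and in ID2 for 1. For replication genes they were in REG for 6, in ID4 for 3 and in ID2, ID6 and ID8 for 1 each. When any difference among the 7 stages was tested, 28 of 28 mitotic and 7 of 12 replication genes were called, against a background of 27% of all genes. The replication genes called were Mcm2, Mcm3, Mcm4, Mcm5, Mcm6, Cdt1 and Rrm2. With the LAC libraries left out, a test chosen after the data had been seen, 18 mitotic and 6 replication genes were called, where 14.7% of all genes were.

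The mean of log2(CPM + 0.5) over the 28 mitotic genes was 0.74, 0.34, 1.29 and 0.57 in the NUL libraries and 2.32, 1.99 and 2.35 in LAC. It was 0.49, 0.47 and 1.09 in ID2 and 0.69, 0.76, 0.45 and 0.31 in ID4. In ID6 it lay between 0.04 and 0.52 (median 0.25), in ID8 it was 0.02, 0.28 and 0.08, and in REG it was -0.13, -0.02, -0.01 and 0.11. All LAC libraries were above every other library, and the 4 REG libraries were below every NUL library. Over the 12 replication genes the same mean was between 2.35 and 2.43 in NUL, 2.42 and 2.94 in LAC, 2.52 and 2.69 in ID2, and 2.01 and 2.25 in REG. Here LAC and NUL overlapped, and REG was again below every NUL library. The mean over all genes tested stayed between 2.94 and 2.97 in the 27 libraries. Whether the course of one list differed from that of the other was not tested. In bulk liver, fewer cells of a type and less RNA per cell cannot be told apart.

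**Figure D1:**
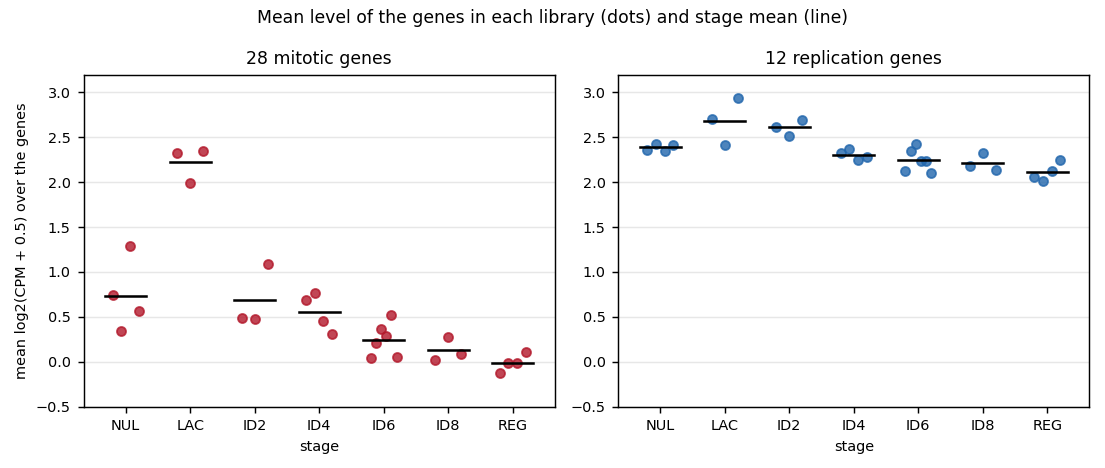
Mean log2(CPM + 0.5) over the 28 mitotic genes (left, red) and the 12 replication genes (right, blue) in each library, by stage; dots are libraries and lines are stage means, and both panels have the same vertical scale. The 3 LAC libraries lie between 1.99 and 2.35 for the mitotic genes, above the other libraries, while LAC spans 2.42 to 2.94 for the replication genes and overlaps NUL.

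**Figure D2:**
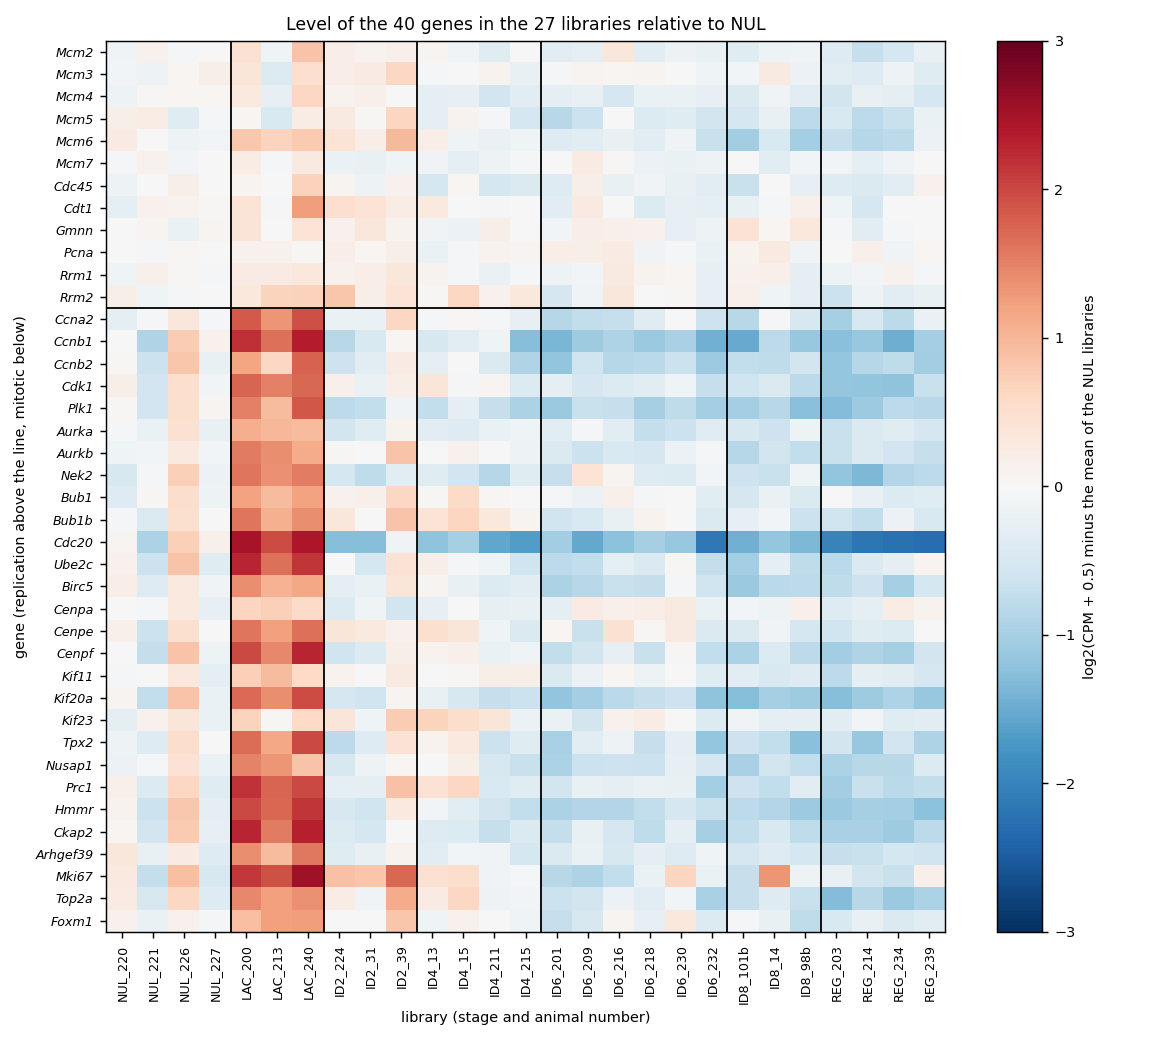
Level of each of the 40 genes (vertical axis) in each of the 27 libraries (horizontal axis), as log2(CPM + 0.5) minus the mean of the 4 NUL libraries; red is above NUL, blue is below, and the colour scale ends at 3 in both directions. The block of mitotic genes is red in the 3 LAC libraries, and Cdc20 is the darkest blue row in REG.

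Promoter sequences are shown because 27 of 28 mitotic genes rose in LAC, as described below, while 2 of 12 replication genes did. RefSeq windows (GRCm38.p6, the C57BL/6J reference, 250 bases before to 50 after the annotated start, 300 in all) were found for 33 of the 40 genes. The motifs were searched on both strands: the CHR as TTTGAA or TTTAAA, the CCAAT box as CCAAT, and the E2F site by any of TTCCCGC in the first form, TTGGCGC in the second, TTCGCGC in the third and TTGCCGC in the last. The reverse of the form TTGGCGC can run into a CCAAT box. The stretches below end at the RefSeq start or where the GENCODE gene begins, whichever comes first, run 5′ to 3′ on the gene's strand, and have the motifs in capitals. Cdc20, Ckap2, Cdk1 and Top2a stand for mitotic genes that rose in LAC, Mcm5 for replication genes without a call and Mcm6 for those with one. They were chosen after their values and motifs had been seen.
Cdc20: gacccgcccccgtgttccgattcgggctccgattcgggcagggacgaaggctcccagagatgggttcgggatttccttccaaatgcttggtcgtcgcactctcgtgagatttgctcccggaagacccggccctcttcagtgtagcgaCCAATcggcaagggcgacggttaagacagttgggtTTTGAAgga
Ckap2: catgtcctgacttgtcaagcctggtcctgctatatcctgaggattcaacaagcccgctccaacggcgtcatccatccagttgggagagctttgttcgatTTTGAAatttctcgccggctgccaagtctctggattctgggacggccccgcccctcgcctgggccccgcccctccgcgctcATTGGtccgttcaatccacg
Cdk1: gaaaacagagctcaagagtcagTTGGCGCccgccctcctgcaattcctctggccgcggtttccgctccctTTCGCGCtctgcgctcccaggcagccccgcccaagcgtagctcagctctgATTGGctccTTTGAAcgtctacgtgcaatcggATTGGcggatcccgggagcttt
Top2a: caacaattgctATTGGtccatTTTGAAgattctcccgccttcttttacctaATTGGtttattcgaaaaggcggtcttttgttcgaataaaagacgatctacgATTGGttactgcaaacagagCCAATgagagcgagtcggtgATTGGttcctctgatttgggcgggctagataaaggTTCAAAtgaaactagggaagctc
Mcm5: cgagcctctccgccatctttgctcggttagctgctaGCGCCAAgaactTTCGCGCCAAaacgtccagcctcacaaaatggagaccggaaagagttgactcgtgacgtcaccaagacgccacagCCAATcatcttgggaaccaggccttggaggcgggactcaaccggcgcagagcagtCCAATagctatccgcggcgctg
Mcm6: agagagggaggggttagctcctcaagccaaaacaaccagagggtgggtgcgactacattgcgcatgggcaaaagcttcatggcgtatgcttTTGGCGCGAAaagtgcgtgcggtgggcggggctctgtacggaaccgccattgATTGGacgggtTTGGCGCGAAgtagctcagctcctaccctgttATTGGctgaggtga

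In GRCm38 these stretches lie at chr4:118437353-118437543 (minus strand) for Cdc20, chr8:22185820-22186019 (minus) for Ckap2, chr10:69352939-69353112 (minus) for Cdk1 and chr11:99024190-99024389 (minus) for Top2a. Those of the helicase genes lie at chr8:75109309-75109508 (plus) for Mcm5 and chr1:128359706-128359905 (minus) for Mcm6. None of the 6 overlaps an exon in GENCODE. The genes themselves are Cdc20 (ENSMUSG00000006398, chr4:118432901-118437352), Ckap2 (ENSMUSG00000037725, chr8:22168160-22185819), Cdk1 (ENSMUSG00000019942, chr10:69335146-69352938), Top2a (ENSMUSG00000020914, chr11:98992943-99024189), Mcm5 (ENSMUSG00000005410, chr8:75109569-75128439) and Mcm6 (ENSMUSG00000026355, chr1:128331590-128359664). Counted from the RefSeq start, the Cdc20 stretch has a CCAAT box that begins at -53 and a CHR at -18. Ckap2 has a CHR farther upstream and an inverted CCAAT box at -20. Top2a has CHR matches at -179 and -23 and 5 CCAAT boxes, 4 of them inverted, in the stretch shown. In the stretch shown, Cdk1 has 2 E2F matches, at -178 and -130, in addition to a CHR at -71 and inverted CCAAT boxes at -80 and -48. Outside the bases printed, the window of Cdk1 also holds a CHR at -15 and an inverted CCAAT box at -208. The windows of Cdc20 and Top2a likewise hold a further CCAAT box, at -8 and, inverted, at -227. Mcm5 and Mcm6 have no CHR in the stretches shown, but the window of Mcm5 holds one farther upstream, at -221, outside the bases printed. In the stretches shown, Mcm5 and Mcm6 have overlapping E2F matches and 2 CCAAT boxes each.

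A CHR match was present in 19 of the 23 mitotic genes with a window (82.6%) and 4 of the 10 replication genes (40%), against 30.6% of the 27025 genes in the table. E2F matches had the other distribution, with 7 of 10 replication genes (70%) and 4 of 23 mitotic genes (17.4%), against 10.9% of all genes. The 4 mitotic genes were Ccnb1, Cdk1, Hmmr and Mki67. CCAAT was frequent in both lists, in 20 of 23 mitotic (87%) and 9 of 10 replication genes (90%), against 41.1% of all genes. Of all 32851 windows, 27.6% held a CHR, 37.4% a CCAAT box and 9.57% an E2F match. Among further genes of the same processes, a CHR was found in 25 of 35 mitotic and 5 of 25 replication genes, and an E2F match in 7 and 17. These are matches of letters and were not tested as sites.

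**Figure D3:**
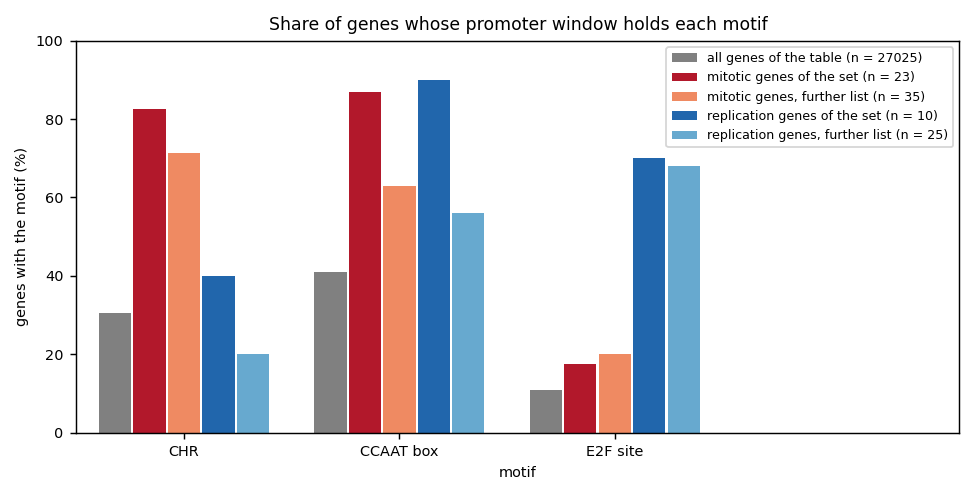
Share of genes (vertical axis, percent) whose RefSeq promoter window holds each motif (horizontal axis), for all 27025 genes of the table, for the 23 mitotic and 10 replication genes with a window, and for 35 and 25 further genes of the same processes. The CHR bar is highest for mitotic genes (82.6%) and the E2F bar for replication genes (70%).

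Lactation day 10 was compared with the nulliparous state first. Of the 28 mitotic genes 27 rose, and Kif23 was the exception. Of the 12 replication genes 2 rose, Mcm6 and Cdt1. Over all genes tested 5.19% were called higher. The median log2 fold change was 1.95 over the mitotic genes and 0.29 over the replication genes, beside -0.01 over all genes. Each LAC library was above each NUL library for 26 mitotic and 3 replication genes (Mcm6, Rrm1 and Rrm2), against 10.2% of all genes. After weaning, 23 of the 28 mitotic genes fell from LAC to ID2, with a median log2 fold change of -1.91, and 1 replication gene, Mcm7, fell. Over all genes 7.64% were called lower in ID2 than in LAC, and their median was 0.02. The 23 mitotic genes that fell had all risen in LAC, and both comparisons use the same 3 LAC libraries. Besides Aurkb, described below, the fall was no longer called in some of the 6 fits without 1 library for Ccnb2 (2 fits), Kif11 (3), Bub1b (5) and Cenpe (5).

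Among the cyclins and kinases, 10 of 10 rose in LAC. Cdk1, the kinase that drives entry into mitosis, had 1.5, 0.686, 1.99 and 1.16 CPM in NUL, 5.4, 4.57 and 5.38 in LAC and 1.46, 1.05 and 1.52 in ID2. In the later stages Cdk1 had 1.76, 1.21, 1.37 and 0.821 CPM in ID4, between 0.598 and 1.13 (median 0.859) in ID6, 0.673, 0.819 and 0.521 in ID8 and 0.286, 0.278, 0.269 and 0.616 in REG. All LAC libraries were above all others, and every REG library was below every NUL library. Its log2 fold change was 1.94 ± 0.30 (SE; adjusted p = 8.59e-05) in LAC against NUL and -1.93 ± 0.33 (SE; adjusted p = 0.00026) in ID2 against LAC. Cyclin B1 (Ccnb1), the partner of CDK1 at mitotic entry, had 1, 0.305, 2.07 and 1.16 CPM in NUL, 6.38, 4.26 and 7.15 in LAC and 0.349, 0.593 and 1.07 in ID2. Ccnb1 then had 0.578, 0.694, 0.878 and 0.126 CPM in ID4, between 0.0556 and 0.296 (median 0.209) in ID6, 0.0259, 0.374 and 0.189 in ID8 and 0.135, 0.185, 0.0475 and 0.246 in REG. The NUL values of Ccnb1 spread widely, from the low NUL_221 to the high NUL_226, yet stayed below LAC. Its log2 fold change was 2.39 ± 0.57 (SE; adjusted p = 0.00799) in LAC and -3.16 ± 0.66 (SE; adjusted p = 0.00256) from LAC to ID2.

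Cyclin A2 (Ccna2), which acts from S phase into mitosis, had 1.1, 1.34, 1.94 and 1.38 CPM in NUL, 6.38, 4.33 and 6.86 in LAC and 1.17, 1.16 and 2.43 in ID2. Its later values were 1.35, 1.47, 1.33 and 1.12 CPM in ID4, between 0.551 and 1.39 (median 0.708) in ID6, 0.569, 1.34 and 0.868 in ID8 and 0.466, 0.864, 0.618 and 1.18 in REG. LAC stood apart from all other stages, while REG overlapped NUL. The log2 fold change of Ccna2 was 2.02 ± 0.32 (SE; adjusted p = 0.000116) in LAC and -1.89 ± 0.35 (SE; adjusted p = 0.000597) from LAC to ID2. Polo-like kinase 1 (Plk1), needed for spindle assembly and mitotic exit, had 0.921, 0.427, 1.43 and 0.973 CPM in NUL, 3.45, 2.17 and 4.57 in LAC and 0.301, 0.331 and 0.789 in ID2. Plk1 had 0.334, 0.644, 0.366 and 0.221 CPM in ID4, between 0.142 and 0.376 (median 0.263) in ID6, 0.181, 0.287 and 0.0789 in ID8 and 0.0601, 0.154, 0.301 and 0.287 in REG. Its LAC libraries were above all others, and each ID6, ID8 and REG library was below each NUL library. Plk1 changed by 1.85 ± 0.44 (SE; adjusted p = 0.00635) in LAC and -2.86 ± 0.52 (SE; adjusted p = 0.000476) from LAC to ID2.

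Aurora kinase A (Aurka), which acts at spindle poles, had 2.57, 2.26, 3.82 and 2.22 CPM in NUL, 6.19, 5.85 and 5.59 in LAC and 1.66, 1.94 and 2.89 in ID2. Aurora kinase B (Aurkb), the kinase of the chromosomal passenger complex, had 0.461, 0.488, 0.795 and 0.486 CPM in NUL, 2.59, 2.24 and 1.78 in LAC and 0.57, 0.538 and 1.4 in ID2. In both genes the LAC libraries were above the NUL and ID2 libraries. Aurka changed by 1.11 ± 0.21 (SE; adjusted p = 0.000766) in LAC and -1.44 ± 0.23 (SE; adjusted p = 0.000119) from LAC to ID2 on the log2 scale, and Aurkb by 1.98 ± 0.36 (SE; adjusted p = 0.000552) and -1.41 ± 0.38 (SE; adjusted p = 0.0126). The Aurkb call from LAC to ID2 was lost in 3 of 6 fits without 1 library, with the largest adjusted p, 0.0798, without ID2_31. Nek2, a centrosome kinase, had 1.63, 2.41, 4.41 and 2.14 CPM in NUL, 8.62, 7.19 and 8.22 in LAC and 1.58, 1.28 and 1.9 in ID2. Nek2 changed by 1.60 ± 0.29 (SE; adjusted p = 0.000619) in LAC and -2.34 ± 0.33 (SE; adjusted p = 3.41e-05) from LAC to ID2. The spindle checkpoint genes Bub1 and Bub1b also rose in LAC, with log2 fold changes of 2.08 ± 0.54 (SE; adjusted p = 0.0118) and 1.87 ± 0.39 (SE; adjusted p = 0.00202). Cyclin B2 (Ccnb2) rose by 1.49 ± 0.44 (SE; adjusted p = 0.0274), but its LAC and NUL libraries overlapped (LAC_213 at 1.72 and NUL_226 at 2.07 CPM). The Ccnb2 call was lost in 5 of the 7 fits that left out 1 library, with the largest adjusted p, 0.187, without LAC_240.

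Both activators of protein destruction at anaphase rose in LAC and fell by ID2. Cdc20, which switches on the anaphase-promoting complex, had 2.7, 1.07, 4.5 and 2.84 CPM in NUL, 16.4, 11.3 and 15.8 in LAC and 0.745, 0.745 and 2.31 in ID2. Thereafter Cdc20 had 0.821, 1.02, 0.527 and 0.442 CPM in ID4, between 0.181 and 1.02 (median 0.83) in ID6, 0.621, 0.862 and 0.695 in ID8 and 0.256, 0.17, 0.143 and 0.123 in REG. LAC was far above every other stage and REG was below every NUL library. Cdc20, whose promoter stretch is printed above, changed by 2.39 ± 0.44 (SE; adjusted p = 0.000959) in LAC and -3.54 ± 0.51 (SE; adjusted p = 8.65e-05) from LAC to ID2. The ubiquitin-conjugating enzyme Ube2c rose by 2.51 ± 0.56 (SE; adjusted p = 0.0047) in LAC and fell by ID2, its log2 fold change being -2.68 ± 0.63 (SE; adjusted p = 0.00574).

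All 4 genes of the centromere and passenger complex rose in LAC. Survivin (Birc5), a passenger subunit, had 1.19, 0.64, 1.32 and 0.866 CPM in NUL, 3.36, 2.53 and 2.82 in LAC and 0.713, 0.786 and 1.4 in ID2. Birc5 had 1.06, 0.776, 0.614 and 0.663 CPM in ID4, between 0.267 and 0.948 (median 0.415) in ID6, 0.181, 0.345 and 0.363 in ID8 and 0.376, 0.463, 0.238 and 0.52 in REG. The LAC libraries were above all others, and REG and ID8 were below every NUL library. Birc5 changed by 1.53 ± 0.34 (SE; adjusted p = 0.00384) in LAC and -1.60 ± 0.38 (SE; adjusted p = 0.00498) from LAC to ID2. The kinetochore genes Cenpe and Cenpf rose by 2.09 ± 0.49 (SE; adjusted p = 0.00618) and 2.36 ± 0.49 (SE; adjusted p = 0.00223), calls that were lost on both TPM scales for Cenpe and on log2(TPM + 0.1) for Cenpf. Cenpa, the histone variant of the centromere, had the lowest log2 fold change of the mitotic genes in LAC, 0.69 ± 0.17 (SE; adjusted p = 0.00964), and its call was lost on both TPM scales.

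Of the 9 spindle and cytokinesis genes 8 rose in LAC. Ckap2, a microtubule-binding protein, had 0.759, 0.32, 1.58 and 0.517 CPM in NUL, 5.41, 3.08 and 5.66 in LAC and 0.412, 0.345 and 0.728 in ID2. Ckap2 had 0.426, 0.413, 0.249 and 0.395 CPM in ID4, between 0.111 and 0.535 (median 0.295) in ID6, 0.233, 0.388 and 0.221 in ID8 and 0.12, 0.123, 0.0792 and 0.205 in REG. Its log2 fold change in LAC, 2.57 ± 0.43 (SE; adjusted p = 0.000244), was the largest of the 40 genes, and from LAC to ID2 it was -3.27 ± 0.50 (SE; adjusted p = 7.19e-05). Hmmr, the hyaluronan receptor that also binds spindle microtubules, had 0.867, 0.32, 1.73 and 0.547 CPM in NUL, 4.54, 3.73 and 5.14 in LAC and 0.412, 0.345 and 1.05 in ID2. Hmmr had 0.699, 0.528, 0.366 and 0.268 CPM in ID4, between 0.157 and 0.396 (median 0.225) in ID6, 0.233, 0.187 and 0.0947 in ID8 and 0.0902, 0.139, 0.127 and 0.041 in REG. In Ckap2 and Hmmr LAC was above all other stages and REG below every NUL library. Hmmr changed by 2.37 ± 0.43 (SE; adjusted p = 0.000619) in LAC and -2.91 ± 0.49 (SE; adjusted p = 0.000262) from LAC to ID2.

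The kinesin Kif20a, which acts in cytokinesis, had 2.22, 1.05, 4.17 and 1.75 CPM in NUL, 7.93, 6.33 and 9.52 in LAC and 1.32, 1.2 and 2.23 in ID2. Kif20a had 1.7, 1.35, 1.1 and 1.15 CPM in ID4, between 0.612 and 1.18 (median 0.871) in ID6, 0.569, 0.791 and 0.726 in ID8 and 0.556, 0.725, 0.856 and 0.67 in REG. Its LAC libraries were above all others, and its ID8 and REG libraries were below every NUL library. Kif20a changed by 1.79 ± 0.30 (SE; adjusted p = 0.000311) in LAC and -2.33 ± 0.34 (SE; adjusted p = 4.99e-05) from LAC to ID2. In the annotation its exons share up to 977 bases with Cdc23 on the other strand, and its counts were not whole in any library, so its level depends on how shared reads were divided. The other kinesin of cytokinesis, Kif23, had 0.461, 0.762, 0.986 and 0.502 CPM in NUL, 1.35, 0.688 and 1.26 in LAC and 0.982, 0.552 and 1.48 in ID2. The Kif23 libraries of these stages overlapped, and its log2 fold change in LAC was 0.70 ± 0.38 (SE; adjusted p = 0.264), but -0.12 on log2(TPM + 1). The spindle motor Kif11, the spindle assembly factor Tpx2 and the midzone bundler Prc1 rose by 0.95 ± 0.22 (SE; adjusted p = 0.00442), 1.97 ± 0.47 (SE; adjusted p = 0.00684) and 2.36 ± 0.44 (SE; adjusted p = 0.000895). Nusap1 and Arhgef39 rose by 1.55 ± 0.33 (SE; adjusted p = 0.00243) and 2.09 ± 0.42 (SE; adjusted p = 0.0015).

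Mki67, the gene of the Ki-67 antigen and the usual marker of cycling cells, had 4.62, 2.07, 7.35 and 2.49 CPM in NUL, 17.6, 15.2 and 23.8 in LAC and 7.22, 7.02 and 13.4 in ID2. Mki67 had 5.28, 5.53, 3.41 and 3.54 CPM in ID4, between 1.69 and 6.1 (median 2.57) in ID6, 2.1, 10 and 3.27 in ID8 and 3.11, 2.35, 2.14 and 4.15 in REG. The LAC libraries were above all others, but ID2_39 and ID8_14 stood well above the other libraries of their stages. Mki67 rose by 2.19 ± 0.51 (SE; adjusted p = 0.00722) in LAC, and from LAC to ID2 its log2 fold change was -1.04 ± 0.54 (SE; adjusted p = 0.209). Topoisomerase II alpha (Top2a), which untangles chromosomes, had 3.32, 1.81, 4.44 and 1.96 CPM in NUL, 8.19, 7.07 and 7.83 in LAC and 3.23, 2.48 and 6.45 in ID2. Top2a had 3.31, 4.44, 2.38 and 2.56 CPM in ID4, between 1.13 and 2.55 (median 1.87) in ID6, 1.5, 1.97 and 1.53 in ID8 and 0.812, 1.31, 0.998 and 1.18 in REG. LAC was above every other library, though ID2_39 came close. Top2a rose by 1.42 ± 0.31 (SE; adjusted p = 0.00321) in LAC, a call lost on log2(TPM + 0.1), and from LAC to ID2 its log2 fold change was -0.93 ± 0.33 (SE; adjusted p = 0.0545).

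Foxm1, the transcription factor of mitotic genes, had 0.935, 0.655, 0.955 and 0.76 CPM in NUL, 1.95, 2.61 and 2.63 in LAC and 0.824, 0.827 and 1.84 in ID2. Foxm1 had 0.715, 0.941, 0.819 and 0.71 CPM in ID4, between 0.315 and 1.14 (median 0.552) in ID6, 0.777, 0.632 and 0.284 in ID8 and 0.466, 0.633, 0.475 and 0.547 in REG. In CPM the LAC libraries were above all others and REG was below every NUL library, but in TPM LAC_200 (0.52) was below NUL_226 and ID2_39 (both 0.70), ID8_101b (0.59) and ID6_216 (0.53). Foxm1 rose by 1.53 ± 0.35 (SE; adjusted p = 0.00398) in LAC, a call lost on both TPM scales, and from LAC to ID2 its log2 fold change was -1.05 ± 0.37 (SE; adjusted p = 0.0526). Mki67, Top2a and Foxm1, with Bub1 and Kif23, were the 5 mitotic genes without a call from LAC to ID2. Among these 5, the ID2 libraries were all below the LAC libraries for Mki67, Top2a, Foxm1 and Bub1. The same held for 2898 of the 16428 genes tested.

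Of the 12 replication genes 10 were not called in LAC, and most of their values overlapped between stages. Mcm2, a helicase subunit, had 5.3, 6.29, 5.54 and 5.75 CPM in NUL, 8.04, 5.21 and 10.7 in LAC and 6.61, 6.23 and 6.43 in ID2. Mcm2 had 6.1, 5.27, 4.34 and 5.68 CPM in ID4, between 4.39 and 7.3 (median 4.74) in ID6, 4.32, 5.13 and 5.15 in ID8 and 4.24, 3.33, 3.82 and 4.82 in REG. LAC_240 was high and LAC_213 lay below the NUL libraries, so the groups overlapped. The log2 fold change of Mcm2 was 0.48 ± 0.18 (SE; adjusted p = 0.0908). Mcm5 had 4.85, 5.01, 3.2 and 4.13 CPM in NUL, 4.41, 2.96 and 5.02 in LAC and 5.18, 4.34 and 6.94 in ID2. Mcm5 had 3.44, 4.62, 4.1 and 2.78 CPM in ID4, between 2.16 and 4.27 (median 2.89) in ID6, 2.8, 3.56 and 2.23 in ID8 and 2.98, 2.27, 2.49 and 3.65 in REG. The highest Mcm5 value was in ID2_39, and its log2 fold change in LAC was -0.06 ± 0.23 (SE; adjusted p = 0.92), a value that was 0 without NUL_220, 0.02 without NUL_221 and 0.13 without LAC_213. Mcm6, the subunit that rose in LAC, had 1.98, 1.6, 1.4 and 1.49 CPM in NUL, 3.21, 2.84 and 3.12 in LAC and 2.3, 1.93 and 3.64 in ID2. Its log2 fold change was 0.92 ± 0.26 (SE; adjusted p = 0.0181), and the call was lost in 3 of 7 fits without 1 library and on both TPM scales. Cdt1, the helicase loader, rose by 0.78 ± 0.25 (SE; adjusted p = 0.0453). LAC_240 was high for Cdt1 (5.35 CPM, beside 2.76 and 1.89 in the other LAC libraries), and without it the adjusted p was 0.59. The Cdt1 call was lost in 5 of 7 fits without 1 library and in 5 of the 8 other alternatives.

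Pcna, the clamp of the DNA polymerases, varied little between libraries. It had 26.4, 24.9, 27.2 and 26.2 CPM in NUL, 28.5, 28.5 and 27 in LAC and 30.1, 27.3 and 29.8 in ID2. Pcna had 22.7, 25.2, 28.1 and 27.9 CPM in ID4, between 22.6 and 31.1 (median 27.2) in ID6, 28.1, 31.5 and 24.1 in ID8 and 26.1, 29.1, 24.2 and 27.1 in REG. The LAC and NUL libraries overlapped, while the lowest ID2 library, at 27.3 CPM, lay just above the highest NUL library, at 27.2 CPM. The log2 fold change of Pcna in LAC was 0.10 ± 0.10 (SE; adjusted p = 0.639). Rrm2, the regulated subunit of ribonucleotide reductase, had 1.29, 0.96, 1.02 and 1.11 CPM in NUL, 1.47, 2.01 and 2.06 in LAC and 2.33, 1.3 and 1.6 in ID2. Rrm2 had 1.14, 1.95, 1.24 and 1.47 CPM in ID4, between 0.614 and 1.51 (median 1.04) in ID6, 1.27, 0.949 and 0.789 in ID8 and 0.511, 0.926, 0.776 and 0.862 in REG. Each LAC and ID2 library was above each NUL library, yet the LAC comparison was not called at 0.75 ± 0.27 (SE; adjusted p = 0.0712). The other 6 replication genes (Mcm3, Mcm4, Mcm7, Cdc45, Gmnn and Rrm1) had log2 fold changes between 0.16 and 0.38 in LAC, with no call. Mcm7, the only replication gene called from LAC to ID2, fell by 0.35 on the log2 scale (adjusted p = 0.0404), and that call was lost in 5 of 6 fits without 1 library. Exons of Mcm7 overlap Ap4m1 and Cops6 on the other strand and 2 microRNA genes.

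**Figure D4:**
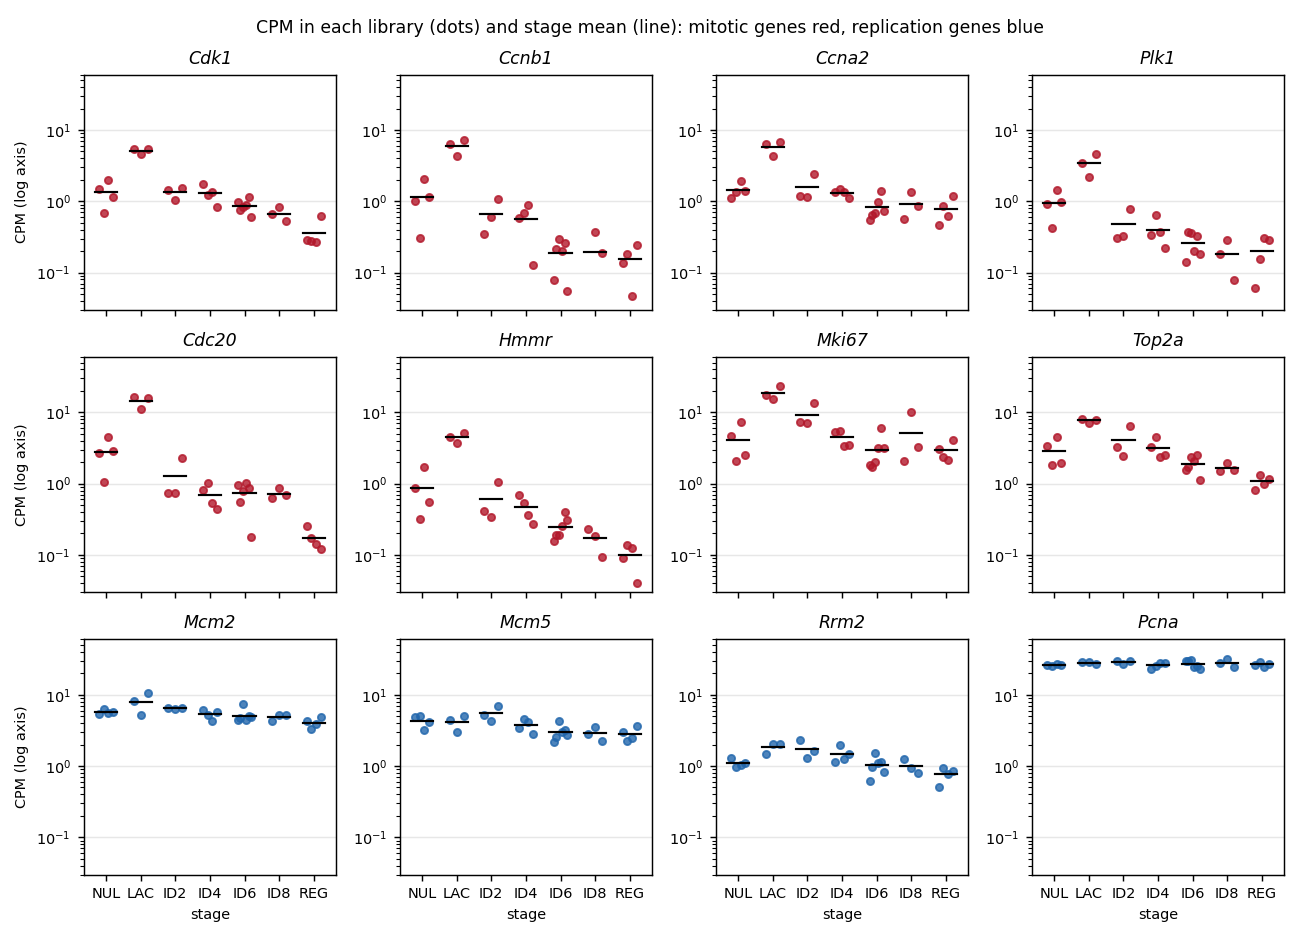
CPM (vertical axis, log scale) of 8 mitotic genes (red) and 4 replication genes (blue) by stage; dots are libraries and lines are stage means. In the mitotic panels LAC is the highest stage and REG the lowest or among the lowest, and Pcna stays between 22.6 and 31.5 CPM.

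**Figure D5:**
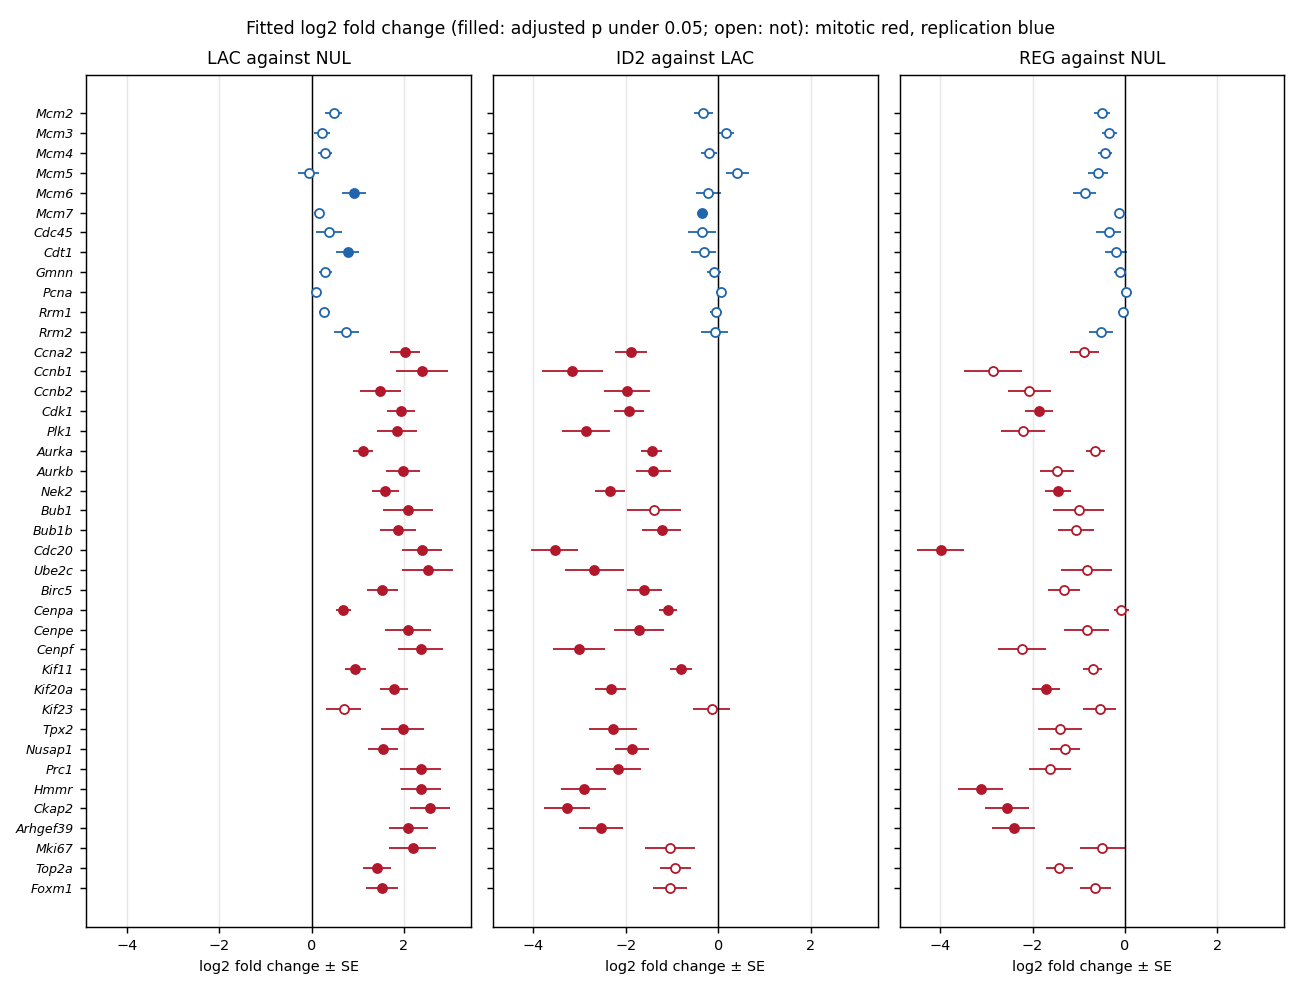
Fitted log2 fold change with its SE (horizontal axis) of the 40 genes (vertical axis) in 3 comparisons, which are LAC and REG, each against NUL, and ID2 against LAC; filled points have an adjusted p under 0.05. Red mitotic genes lie to the right in LAC (27 of 28 filled), to the left in ID2 (23 filled) and to the left in REG (7 filled).

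Later stages were then set against NUL, whose 4 libraries these comparisons share. The stage mean over the mitotic genes, in log2(CPM + 0.5), was 0.73 ± 0.41 (SD) in NUL, 0.68 ± 0.35 in ID2, 0.55 ± 0.21 in ID4, 0.24 ± 0.18 in ID6, 0.13 ± 0.14 in ID8 and -0.01 ± 0.10 in REG. At ID2 none of the 40 genes was called against NUL, where 3.24% of all genes were. At an unadjusted p under 0.05, 5 mitotic and 3 replication genes passed, against 16.9% of all genes, and DESeq2 also called 0. The median log2 fold change at ID2 was -0.23 over the mitotic and 0.22 over the replication genes. At ID4 1 gene, Cdc20, was lower, at -1.98 ± 0.44 (SE; adjusted p = 0.0102) on the log2 scale, against 1.61% of all genes called lower. The median was -0.22 over the mitotic genes and -0.06 over the replication genes. At ID6 6 mitotic genes were lower (Ccnb1, Ccnb2, Plk1, Cdc20, Kif20a and Hmmr), against 0.682% of all genes, with medians of -0.79 and -0.13. Their log2 fold changes ran from -2.59 ± 0.53 (SE; adjusted p = 0.0133) in Ccnb1 to -1.38 ± 0.27 (SE; adjusted p = 0.00533) in Kif20a. Without NUL_226 none of the 6 was called, and with log2(TPM + 1) in limma or only the 2 groups in the fit 3 and 2 members were.

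At ID8 6 genes were lower than in NUL, against 0.14% of all genes. They were the helicase gene Mcm6, at -1.19 ± 0.28 (SE; adjusted p = 0.0453), and the mitotic genes Plk1, Aurkb, Birc5, Kif20a and Hmmr, with log2 fold changes between -2.36 and -1.71. The median log2 fold change was -1.32 over the mitotic and -0.14 over the replication genes, beside 0 over all genes. Every ID8 library was below every NUL library for 10 of 28 mitotic and 2 of 12 replication genes, against 6.03% of all genes. All 3 ID8 animals, 2 of the ID2 and 2 of the ID4 animals have numbers under 200 in their titles, and all NUL, LAC, ID6 and REG animals have higher numbers. What the numbers mean is not given. Within ID8 and NUL the stage and the number range coincide, while ID2 and ID4 hold both ranges. With the number range as a covariate, estimated from ID2 and ID4, no member was called, and the log2 fold changes of the 5 mitotic genes were between -3.22 and -2.12, with adjusted p between 0.0886 and 0.143. The median over the mitotic genes was then -2.04. No member was called with only the 2 groups in the fit, or without any 1 of NUL_226, ID8_101b and ID8_98b, and 2 were called without NUL_220 or NUL_227.

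At 4 weeks after weaning, part of the mitotic genes were below the nulliparous level. Of the 28, 7 were called lower in REG than in NUL: Cdk1, Nek2, Cdc20, Kif20a, Hmmr, Ckap2 and Arhgef39. No replication gene was called. In this comparison 14 genes of 16428 were called and 10 of them were lower, 0.0609% of all genes, and 7 of those 10 were among the 40 genes. The median log2 fold change was -1.41 over the mitotic genes and -0.34 over the replication genes, beside 0 over all genes. All 28 mitotic genes had a negative log2 fold change (Kif23, at -0.55, was at 0.10 on log2(TPM + 1)). An unadjusted p under 0.05 was found for 21 of the 28, against 7.17% of all genes, and 18 had every REG library below every NUL library, against 1.67%. Among the replication genes Mcm2, Mcm4, Mcm6 and Rrm2 had every REG library below every NUL library.

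Cdc20 had the most negative log2 fold change in REG, -3.99 ± 0.51 (SE; adjusted p = 0.000403). Its rounded counts were 199, 70, 283 and 187 in NUL and 17, 11, 9 and 9 in REG. Hmmr had 64, 21, 109 and 36 reads in NUL and 6, 9, 8 and 3 in REG, and its log2 fold change was -3.12 ± 0.49 (SE; adjusted p = 0.00318). These 2 genes kept their call in each of the 8 fits that left out 1 library. The Hmmr call was lost on both TPM scales and with only the 2 groups in the fit, where Cdc20 kept its call. Cdk1 changed by -1.86 ± 0.31 (SE; adjusted p = 0.00466), Kif20a by -1.71 ± 0.31 (SE; adjusted p = 0.0131), Ckap2 by -2.55 ± 0.47 (SE; adjusted p = 0.0172), Arhgef39 by -2.41 ± 0.46 (SE; adjusted p = 0.0227) and Nek2 by -1.45 ± 0.29 (SE; adjusted p = 0.03). Ccnb1 and Plk1 had log2 fold changes of similar size, -2.85 ± 0.63 (SE; adjusted p = 0.0732) and -2.21 ± 0.47 (SE; adjusted p = 0.0559), without a call. Mki67 (-0.49 ± 0.48 (SE; adjusted p = 0.955)) and Cenpa (-0.08 ± 0.16 (SE; adjusted p = 0.995)) were the mitotic genes nearest to their NUL level. The number of calls depended on single libraries and on the scale. It was 12 without NUL_221, 3 without NUL_226, 2 without REG_203 and 4 without REG_214 or REG_239, and it was 16 with DESeq2 and 1 on either TPM scale or with only the 2 groups in the fit.

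Between neighbouring stages after weaning, 1 member was called in 1 of the 4 steps. From ID2 to ID4 no member was called (1.49% of all genes were), with 1 mitotic and 5 replication genes at an unadjusted p under 0.05 (13.9% of all genes) and 0 calls in DESeq2. From ID4 to ID6 Bub1b was lower, at -1.08 ± 0.33 (SE; adjusted p = 0.0406) on the log2 scale, against 8.53% of all genes called. Bub1b had 1.03, 1.3, 0.936 and 0.71 CPM in ID4 and between 0.252 and 0.732 (median 0.418) in ID6, and the stages overlapped. The Bub1b call was lost in 7 of 10 fits that left out 1 library, with the largest adjusted p, 0.131, without ID4_15, and also on log2(TPM + 1) and with the number range as a covariate. At an unadjusted p under 0.05 there were 13 mitotic genes and 1 replication gene from ID4 to ID6 (22.9% of all genes), and DESeq2 called Bub1b, Ccnb1 and Top2a. From ID6 to ID8 (4.12% of all genes called) and from ID8 to REG (0.0487%) no member was called. At an unadjusted p under 0.05 there were 2 mitotic and 2 replication genes from ID6 to ID8 (20.5% of all genes) and 3 and 2 from ID8 to REG (9.02%), and DESeq2 called 0 in the first step and Cdc20 in the second. The median over the mitotic genes was -0.25, -0.66, -0.31 and -0.18 in these 4 steps, and over the replication genes it was -0.34, 0.04, -0.03 and -0.1.

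In NUL and ID2 a single library was highest for most mitotic genes. NUL_226 was the highest NUL library for 27 of the 28 mitotic genes but for 2 of the 12 replication genes. ID2_39 was the highest ID2 library for 26 mitotic and 6 replication genes. In LAC the order was shared between LAC_240, highest for 14 mitotic genes, and LAC_200, highest for 12, while LAC_240 was highest for 10 of the 12 replication genes. ID8_14 was highest in ID8 for 17 mitotic and 7 replication genes. In ID4 the leading library, ID4_15, was highest for 16 mitotic genes, in ID6 ID6_230 for 12 and in REG REG_239 for 11. The mean over the mitotic genes minus that over the replication genes was -1.06 in NUL_226 and between -2.09 and -1.62 in the other NUL libraries. It was between -0.59 and -0.38 in LAC and between -2.2 and -2.03 in REG.

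Levels can be compared between genes in TPM, which is scaled by transcript length. In NUL, Pcna was the most abundant member at 25.5 ± 1.01 TPM (SD, n = 4), followed by Gmnn at 9.79 ± 0.922 TPM (SD, n = 4) and Mcm7 at 9.22 ± 1.2 TPM (SD, n = 4). The most abundant mitotic genes in NUL were Cenpa, at 6.63 ± 1.11 TPM (SD, n = 4), Cdk1, at 2.36 ± 1.24 TPM (SD, n = 4), and Cdc20, at 2.2 ± 1.11 TPM (SD, n = 4). In LAC Cdc20 reached 10.8 ± 2.25 TPM (SD, n = 3), Cenpa 9.79 ± 0.823 TPM (SD, n = 3) and Cdk1 9.2 ± 1.68 TPM (SD, n = 3), beside 25.4 ± 0.238 TPM (SD, n = 3) for Pcna. At REG Cdc20 was at 0.155 ± 0.0342 TPM (SD, n = 4). Gmnn, at 11.5 ± 2.27 TPM (SD, n = 3), and Mcm7, at 9.5 ± 1.12 TPM (SD, n = 3), were of the size of Cdc20 in LAC.

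Further genes of the same processes, not in the set, were described in the same way. They too were chosen with earlier results of these data known, so they are not an independent list. Of 42 other mitotic genes 27 rose in LAC (5.19% of all genes did), with a median log2 fold change of 1.45, and 26 fell from LAC to ID2 (7.64% of all genes did), with a median of -1.37. Cdc25c and Sgo1 passed the filter on low counts only through the LAC libraries, and among the other 40 genes 25 rose (median 1.41) and 24 fell (median -1.33). The lowest adjusted p values in LAC belonged to the microtubule regulator Stmn1, at 1.68 ± 0.21 (SE; adjusted p = 1.22e-05), to Cdca3, at 1.72 ± 0.24 (SE; adjusted p = 3.67e-05), and to the kinetochore gene Spc24, at 0.81 ± 0.14 (SE; adjusted p = 0.000459). From LAC to ID2 the lowest adjusted p values were those of Cdca3, Stmn1 and securin (Pttg1), at -1.91 ± 0.27 (SE; adjusted p = 3.46e-05), -1.39 ± 0.23 (SE; adjusted p = 0.000187) and -1.31 ± 0.27 (SE; adjusted p = 0.0019). Of 31 other replication genes 2 rose in LAC, thymidylate synthase (Tyms) at 0.40 ± 0.13 (SE; adjusted p = 0.0407) and the transcription factor E2f1 at 0.79 ± 0.25 (SE; adjusted p = 0.0409). That share is near the 5.19% of all genes called higher, and the median was 0.22. At ID2 3 of the 31 were called higher than in NUL, as were 381 of the 16428 genes tested. The 3 were thymidine kinase (Tk1) at 0.70 ± 0.13 (SE; adjusted p = 0.00192), the maintenance methylation factor Uhrf1 at 1.75 ± 0.42 (SE; adjusted p = 0.0169) and the polymerase subunit Pole at 0.94 ± 0.24 (SE; adjusted p = 0.0287). Tk1, Uhrf1 and Mcm10 were also higher in ID2 than in LAC, at 0.51 ± 0.14 (SE; adjusted p = 0.0114), 1.3 ± 0.45 (SE; adjusted p = 0.0473) and 1.14 ± 0.32 (SE; adjusted p = 0.02), which as 3 of 31 is near the 8.48% of all genes called higher there. In REG none of the 42 or the 31 was called, with medians of -0.77 and -0.11. At an unadjusted p under 0.05 there were 23 of the 42 and 3 of the 31, against 7.17% of all genes, to which the second share is near.

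Markers of the cell types of liver also moved with lactation. The summed CPM of 6 hepatocyte markers was between 186000 and 231000 in LAC and between 96000 and 124000 in NUL, with 3 of 6 called higher. Of the 8 erythroid markers matched, the sum was between 768 and 1020 in LAC and 335 and 713 in NUL, and none of the 6 tested was called. The sum of 8 Kupffer cell and macrophage markers was lower in LAC, 270 to 378 beside 401 to 511, with 6 of 8 called lower. For 9 T and NK cell markers the range was 1.78 to 2.72 in LAC and 3.72 to 5.38 in NUL, with 3 of 9 called lower. Stellate (181 to 185 beside 230 to 287) and bile duct markers (21.4 to 27.9 beside 33.9 to 47.2) were also lower in sum, as were endothelial markers, at no more than 212 in LAC and less than in any NUL library. Called lower were 3 of 5 stellate, 2 of 5 bile duct and 1 of 6 endothelial markers. Of the 16428 genes tested, 985 were called lower in LAC and 852 higher. The granulocyte and the B and plasma cell sums overlapped between LAC and NUL, with 0 of 8 and 2 of 7 genes called lower. Between REG and NUL the ranges of all 10 marker sums overlapped and none of their genes was called, the erythroid sum being 451 to 639 in REG and 335 to 713 in NUL. The erythroid sum was 53.1 to 264 in ID6 and 19.9 to 35 in ID8, with Rhag at 0 in ID8. Of the 6 erythroid genes tested, 5 and 4 were called lower than in NUL, against 0.682% and 0.14% of all genes. Kupffer cell and macrophage markers were called higher than in NUL at ID4 (6 of 8) and ID6 (5 of 8), where 434 and 66 of the 16428 genes tested were. From LAC to ID2, where 23 mitotic genes fell, 5 of 8 Kupffer cell and macrophage, 4 of 6 endothelial and 5 of 8 pancreatic acinar markers were called higher. Over all genes tested 8.48% were called higher in that step. The part of these markers in the mitotic gene results was not tested. Pancreatic acinar markers summed to 1260 in ID2_31, 90.7 in ID4_15 and 35.8 in ID8_98b, and to between 6.08 and 21.4 in the other 24 libraries. Without ID2_31, 19 members were called from LAC to ID2, in place of 24.

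Some members share sequence with other genes in the annotation, and for some the deposited counts were divided. Exons of 12 of the 40 genes overlap those of another gene, most on the opposite strand, and the use of strand in counting is not given in the sources used here. Counts of Pcna, Ccna2 and Kif20a were not whole (within 0.005) in any of the 27 libraries, which arises when reads are divided among genes, although Pcna has no overlapping neighbour. Those of Prc1 were not whole in 10 libraries, of Nek2 in 7, of Mcm7 in 2 and of Ccnb1 in 1. Other overlapping members, such as Cdc45, Plk1, Nusap1 and Ube2c, had whole counts in every library. Of the genes with counts that were not whole, Ccna2, Kif20a, Prc1, Nek2 and Ccnb1 are among the mitotic genes that rose in LAC. Of the overlapping members with whole counts, Plk1, Nusap1, Ube2c, Cdc20, Top2a and Foxm1 also rose there.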

How the data were processed

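The members and the further gene lists were chosen with earlier results of these data known. The authors deposited 1 table per library with expected counts per gene, RSEM's estimate of the reads of each gene, per the file headers. TPM, scaled by effective gene length, is in the same tables deposited by the authors. STAR 2.6.1a, RSEM 1.3.1 and mm10 (GRCm38) are named in the submitters' processing notes; use of strand is not given in the sources used here. RNA was extracted with Trizol and libraries were made with an NEBNext Ultra kit, per the labels' protocols. Of the 27 libraries 16 were sequenced in 2 runs and 11 in 1, per the deposited readme.

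Gene symbols and positions come from GENCODE M21 (GRCm38), where 51633 of 51826 identifiers were found. Expected counts were rounded, and the test was that of edgeR 4.0.16 under R 4.3.3 (filterByExpr by stage, TMM, robust quasi-likelihood fit of all 27 libraries and 7 groups). The call threshold was 0.05 on p adjusted by Benjamini-Hochberg over the 16428 genes tested, within each of 11 two-sided comparisons and the joint test. The common dispersion was 0.036. Libraries were taken as replicates, and no 2 libraries of a group were near sampling noise (smallest chi-square per gene 43.2). Title numbers do not repeat between groups, so nothing was paired. The script was tested on simulated data.

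Named members are 12 fixed examples and, per comparison, up to 5 called in each direction by lowest adjusted p. Alternatives were DESeq2 1.42.0, RLE scaling, no filter, limma 3.58.1 on log2(TPM + 1) and log2(TPM + 0.1), title number under 200 or sequencing runs as covariate, only the 2 groups, and each library left out in turn. The level of 1 marker gene is not reported here.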

Additional observations from a re-analysis of the deposited data

Results flagged for a closer look

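In stages of 4 to 6 animals, 56 series of library values were searched for a single library far from the rest, which chance gives in about 1 in 20. 3 such values were found, all in CPM. Cdk1 was 0.616 in REG_239 and between 0.269 and 0.286 in the other REG libraries. Birc5 was 0.948 in ID6_230 and between 0.267 and 0.473 in the other ID6 libraries. Mcm2 was 7.3 in ID6_216 and between 4.39 and 5.01 in the other ID6 libraries.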

How the results depend on the processing

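Calls among the 40 genes in lactation, after weaning and in the joint test stayed within 1.5 times the main count under each alternative. With 1 library left out they were 26 to 31 in LAC against NUL, 18 to 24 in ID2 against LAC and 33 to 36 in the joint test. Other comparisons moved more. With DESeq2 there were 16 in REG against NUL, 3 in ID6 against ID4 and 1 in REG against ID8. On log2(TPM + 1) there were 3 in ID6 against NUL, 1 in ID8 against NUL, 1 in REG against NUL and 0 in ID6 against ID4, and on log2(TPM + 0.1) 1 in ID8 against NUL and 1 in REG against NUL. With title number under 200 as covariate there were 0 in ID8 against NUL and 0 in ID6 against ID4, and with sequencing runs 3 in ID8 against NUL. With only the 2 groups in the fit there were 2 in ID6, 0 in ID8 and 1 in REG against NUL.

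Leaving out 1 library gave 1 to 2 calls in ID4 (2 without NUL_221), 0 (without NUL_226) to 8 (without ID6_230) in ID6, 0 to 6 in ID8 and 2 to 12 in REG against NUL. It gave 0 to 2 in ID6 against ID4 (2 without ID4_215 or ID6_230) and 0 to 1 in ID8 against ID6 (1 without ID8_14). In ID2 against NUL, ID4 against ID2 and REG against ID8 it gave 0 throughout. The causes were not tested. Signs turned for the following named genes without a call. Mcm5 in LAC against NUL was 0 without NUL_220, 0.02 without NUL_221 and 0.13 without LAC_213 (range without 1 library -0.22 to 0.13), and Pcna was 0 on both TPM scales. Pcna in REG against NUL was -0.02 without REG_214 (range -0.02 to 0.07). Rrm2 in ID2 against LAC was 0.02 with title number as covariate, 0 without LAC_240 and 0.09 without ID2_31 (range -0.35 to 0.09). Among the other members, signs turned on the TPM scales for Kif23 in LAC against NUL (-0.12 and -0.29), ID2 against LAC (0.08 and 0.20) and REG against NUL (0.10 and 0.14), for Mcm3 in the first, and for Mcm6 and Rrm1 in the second, with Rrm1 also in the third. No paired analysis was possible because title numbers do not repeat between groups.

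TPM uses an effective length that differs between libraries, and some mitotic genes rest on few reads in REG, such as Hmmr with 3 to 9.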
